A study of Mus musculus with 6 samples.

Results

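The genes described here are 10 members of the tumour necrosis factor (TNF) family, 7 ligands (Tnf, Tnfsf9, Tnfsf10, Tnfsf13b, Tnfsf14, Tnfsf15 and Lta) and 3 receptors (Tnfrsf1a, Tnfrsf1b and Fas), taken by symbol from the 23413 genes of the count table. RNA-seq had been done on alveolar macrophages, the phagocytes that live in the air sacs of the lung, that were recovered from wild-type (WT) mice by lavage. Cells received 100 ng/mL lipopolysaccharide (LPS, a cell wall component of Gram-negative bacteria) plus 50 nM vitamin D3 (LPS + VD3), or LPS alone, for 4 h in vitro, and were set against control cells. Each of the 3 groups had 2 libraries, of 5022314 to 5465223 counts. The form of vitamin D3 and the handling of the control cells are not stated in the labels. Nothing in the labels says that the libraries came from separate mice, so p-values measure the spread between libraries, which may be technical.

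TNF family ligands are mostly membrane-anchored trimers, and some, such as TNF, are also cut from the cell surface by the protease Adam17. The receptor Tnfrsf1a carries a death domain and builds complexes with Tradd, Ripk1, Traf2 and the ubiquitin ligase Birc3 that lead to NF-kappa B activation or, through Fadd and caspase 8, to cell death. Tnfrsf1b has no death domain and binds Traf proteins directly. Alveolar macrophages are known as an early source of TNF when bacterial products reach the lung.

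The cell type was checked on 13 alveolar macrophage markers, such as Siglecf, Chil3 and Marco, all of which were detected. They summed to 29580 to 30320 CPM (a gene's count relative to the library's total, scaled between libraries by the TMM method) with LPS + VD3, to 28850 to 30690 CPM with LPS and to 23910 to 23970 CPM in controls. Chil3 made up the largest share of these sums; singly, 7 of the 13 were lower and 3 higher in LPS than in control cells (median log2 difference -0.78), and Siglecf averaged 98.2 ± 2.99 CPM with LPS + VD3, 87.4 ± 6.07 CPM with LPS and 210 ± 4.38 CPM in controls (SD, n = 2 each). Of 14 T, B and NK cell markers, 5, among them Cd3e, had 0 counts in every library, and the sum was 2.72 to 5.37 CPM with LPS + VD3, 3.90 to 4.25 CPM with LPS and 2.56 to 2.91 CPM in controls. Of 9 neutrophil markers, 4, among them S100a9 and Mpo, had 0 counts, and the sum was 72.2 to 80.6 CPM with LPS + VD3, 53.4 to 64.3 CPM with LPS and 61.0 to 64.9 CPM in controls. The sum of 7 monocyte markers was 183 to 208 CPM with LPS + VD3, 271 to 369 CPM with LPS and 11.3 to 12.8 CPM in controls, with Plac8 at 0 counts. That of 10 lung epithelium markers was 41.2 to 53.7 CPM with LPS + VD3, 35.9 to 39.3 CPM with LPS and 223 to 241 CPM in controls, with Sftpc at 0 counts and Cdh1 making up most of it. Cdh1 had 179 and 250 counts with LPS + VD3, 148 and 177 with LPS and 1295 and 1485 in controls. Each other lung epithelium marker had at most 11 counts in any library. Within the monocyte list the tested genes ran apart: Vcan averaged 193 CPM with LPS + VD3, 317 CPM with LPS and 3.56 CPM in controls, and Ccr2 0.204 CPM with LPS + VD3, 0.814 CPM with LPS and 6.67 CPM in controls. The sum of 8 dendritic cell markers was 18.8 to 19.1 CPM with LPS + VD3, 20.03 to 23.2 CPM with LPS and 27.9 to 34.1 CPM in controls. Between LPS and control, the sums of all these lists but the neutrophil one did not overlap. Their part in the differences below was not tested, and in bulk RNA fewer cells of a type cannot be told apart from less RNA per cell. The 2 LPS libraries stood apart from each other: the difference between them followed the GC content of transcripts (Spearman rho = 0.679 over 10086 genes, against 0.187 for the LPS + VD3 pair and 0.244 for the control pair), and LPS 1 carries a title numbered unlike those of the other libraries. Member differences between LPS + VD3 and LPS are therefore also given without each LPS library.

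Promoters are shown for Tnf, Tnfsf15, Tnfrsf1b and Fas, the members that rose in LPS cells under every alternative tried, as the stretch before the RefSeq transcript start (GRCm38.p6, the mm10 build), 5′ to 3′ along the strand of the gene, up to 250 bases and without bases that GENCODE puts in an exon of the gene. Capitals mark matches to the motifs that were searched on both strands: the TATAAA box, the PU.1 core GAGGAA (PU.1 is the myeloid ETS factor), the AP-1 site TGANTCA and the STAT site TTCNNNGAA. The Tnf stretch is chr17:35202008-35202257, the Tnfsf15 stretch chr4:63745114-63745309, the Tnfrsf1b stretch chr4:145246871-145247120 (these on the minus strand) and the Fas stretch chr19:34290409-34290658 (plus strand).
Tnf: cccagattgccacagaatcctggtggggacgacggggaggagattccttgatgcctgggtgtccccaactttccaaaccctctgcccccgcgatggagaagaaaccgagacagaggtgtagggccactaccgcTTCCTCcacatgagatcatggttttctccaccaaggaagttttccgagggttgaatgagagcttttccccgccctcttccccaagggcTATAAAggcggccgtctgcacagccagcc
Tnfsf15: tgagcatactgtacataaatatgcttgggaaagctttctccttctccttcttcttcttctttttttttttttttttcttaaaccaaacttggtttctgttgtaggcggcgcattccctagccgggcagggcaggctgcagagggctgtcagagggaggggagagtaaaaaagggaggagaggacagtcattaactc
Tnfrsf1b: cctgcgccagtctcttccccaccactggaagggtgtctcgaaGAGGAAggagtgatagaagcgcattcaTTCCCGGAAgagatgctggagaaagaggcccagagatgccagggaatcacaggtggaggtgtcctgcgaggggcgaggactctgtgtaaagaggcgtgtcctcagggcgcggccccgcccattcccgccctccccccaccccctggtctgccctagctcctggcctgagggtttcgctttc
Fas: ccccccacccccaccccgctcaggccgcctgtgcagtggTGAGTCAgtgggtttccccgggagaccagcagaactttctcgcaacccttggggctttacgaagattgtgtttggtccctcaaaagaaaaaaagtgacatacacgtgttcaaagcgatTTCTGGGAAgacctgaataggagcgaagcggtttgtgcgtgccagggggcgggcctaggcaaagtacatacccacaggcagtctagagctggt

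Tnf held a PU.1 core, read on the opposite strand, at positions -117 to -112 from the start and a TATAAA box at -29 to -24. Tnfrsf1b held a PU.1 core at -208 to -203 and a STAT site at -181 to -173, and Fas held an AP-1 site at -211 to -205 and a STAT site at -93 to -85. No motif of the search was in the Tnfsf15 stretch. Of all 32851 promoters in the RefSeq table, 23.3% held the PU.1 core, 12.4% the TATAAA box, 7.02% the STAT site and 6.75% the AP-1 site. The NF-kappa B consensus (kappa B, in 3.9% of promoters) and the DR3 vitamin D response element (in 0.0396%) were not found in the 250 bases before the start of any of the 9 members that the table holds, which says only that those letters are not in that window.

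LPS raised RNA of the ligands Tnf and Tnfsf15 and of the receptors Tnfrsf1b and Fas, and Tnfsf13b passed the test at its margin. Of the 7 members with enough counts to test, 5 were higher in LPS than in control cells, 0 were lower and 2 did not pass (edgeR quasi-likelihood test, Benjamini-Hochberg adjusted p under 0.05 over 10724 genes). The test called 31.8% of all tested genes, 15.7% as higher and 16.2% as lower. Of the called genes 49.2% were higher, a share that was 26.2% with no scaling beyond library size; that setting moved the median of all tested genes to -0.29 and left Tnf, Tnfsf15, Tnfrsf1b and Fas called as higher. Tnfsf15 and Tnfsf13b passed the filter on low counts only through libraries with LPS, so the count over tested members is a description. The median log2 difference of the 7 tested members was 2.49, against 0.01 for all tested genes. LPS and control ranges did not overlap for 7 of the 7, and for 65.2% of all tested genes.

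**Figure D1:**
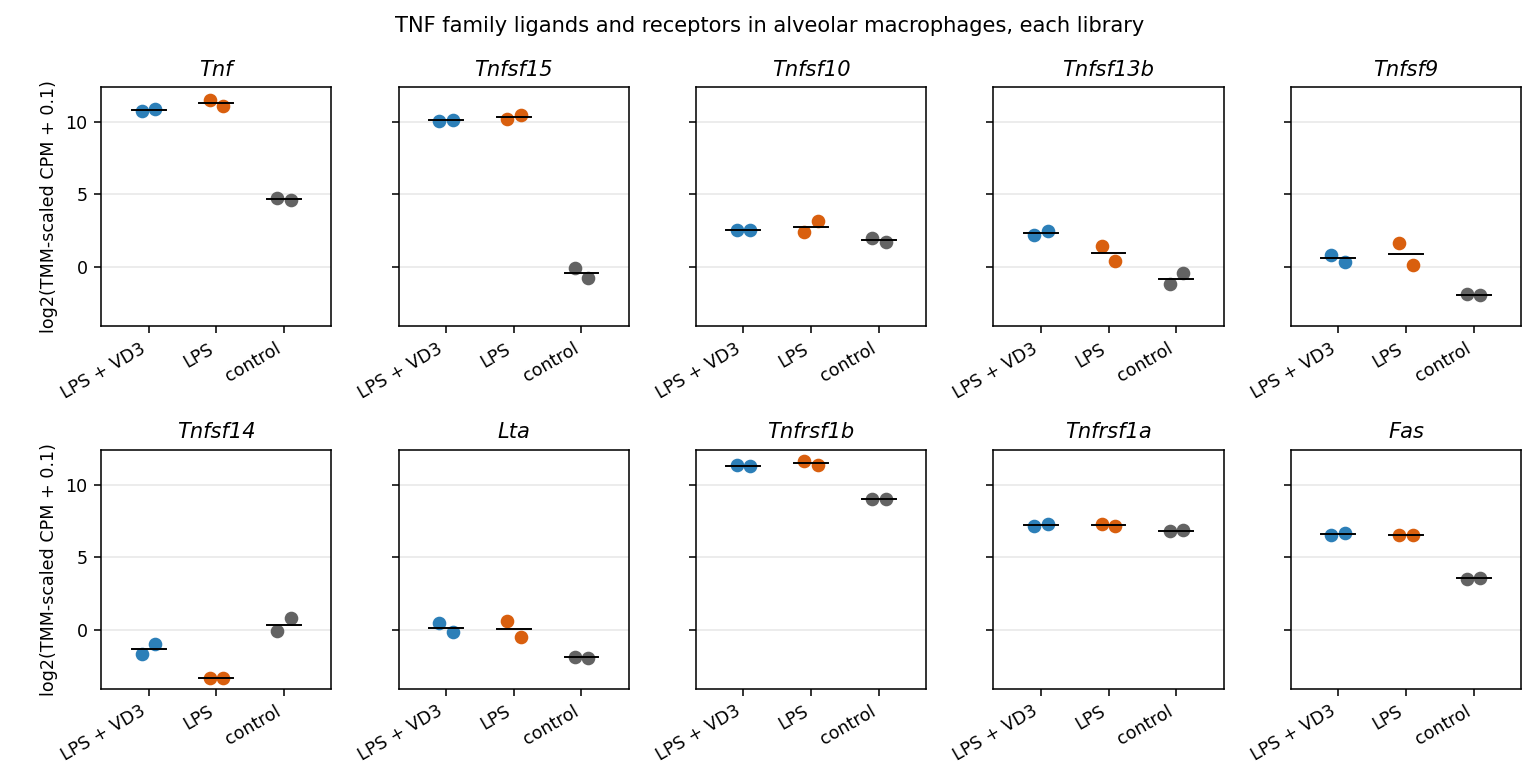
Level of each of the 10 members in each library, as log2 of TMM-scaled CPM with a small pseudocount, in LPS + VD3, LPS and control cells; points are libraries and black bars group means of the plotted values. Tnf and Tnfsf15 stand far above control in all LPS-treated libraries, while Tnfrsf1a and Tnfsf10 lie close to it.

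Tnf (chr17:35199381-35202007, minus strand, mm10) encodes the founding cytokine of the family. It had 1696 and 1940 CPM in the LPS + VD3 libraries, 2959 and 2223 CPM in the LPS libraries and 27.4 and 24.8 CPM in the control libraries. Every LPS-treated library was far above both controls, and both LPS libraries were above both LPS + VD3 libraries. Relative to control, Tnf rose by 6.63 ± 0.22 on the log2 scale with LPS (SE; 95% interval 6.13 to 7.13; edgeR adjusted p = 2.77e-08), a 99.1-fold difference. In all counts of a library, Tnf took 0.156% and 0.178% with LPS + VD3, 0.28% and 0.207% with LPS and 0.00319% and 0.00284% in controls. Its rank among all genes by count was 63 and 59 with LPS + VD3, 34 and 44 with LPS, and 5217 and 5511 in controls.

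Tnfsf15 (chr4:63727084-63745113, minus strand) encodes TL1A, a ligand of the death receptor DR3 that costimulates T cells. Its counts were 5199 and 5648 with LPS + VD3, 5788 and 7084 with LPS, and 5 and 3 in controls, which correspond to 1088 and 1124 CPM with LPS + VD3, 1188 and 1433 CPM with LPS and 0.857 and 0.481 CPM in controls. The gene was thus at the edge of detection in control cells and among the abundant ligands after LPS. The log2 difference of LPS against control was 10.90 ± 0.28 (95% interval 10.28 to 11.52; edgeR adjusted p = 4.47e-09); with 8 counts over the control libraries, its size depends on few reads.

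Tnfsf13b (chr8:10006467-10039072, plus strand) encodes BAFF, a survival factor of B cells. It had 22 and 27 counts with LPS + VD3, 13 and 6 counts with LPS and 2 and 4 counts in controls, so that the 3 groups did not overlap. In CPM, this was 4.99 ± 0.543 CPM with LPS + VD3, 1.94 ± 1.03 CPM with LPS and 0.492 ± 0.211 CPM in controls (SD, n = 2 each). The difference of LPS against control was 1.91 ± 0.66 (95% interval 0.45 to 3.38; edgeR adjusted p = 0.0489). It stayed past the threshold in 5 of the 15 alternatives that gave a value, with adjusted p between 0.0146 and 0.299, was lost with DESeq2 (adjusted p = 0.103) and, with 1 library left out, passed only without LPS 2 (1 of 6). Without LPS 1 the difference was 1.23 (adjusted p = 0.299), and without LPS 2 it was 2.37 (adjusted p = 0.0146).

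Tnfsf10 (chr3:27317028-27342427, plus strand) encodes TRAIL, a ligand of death receptors. It had 5.86 and 5.77 CPM with LPS + VD3, 5.13 and 8.90 CPM with LPS and 3.94 and 3.21 CPM in controls. The spread between the LPS libraries was wide beside the distance to control, although no LPS library was as low as a control. The difference of LPS against control was 0.97 ± 0.35 and missed the threshold (95% interval 0.20 to 1.75; edgeR adjusted p = 0.0568). It was 1.30 without LPS 1, which passed (adjusted p = 0.00786), and 0.52 without LPS 2 (adjusted p = 0.304). It also passed with the GC correction (1.04, adjusted p = 0.0152).

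The remaining ligands had too few counts for the test. Tnfsf9 (chr17:57105325-57107757, plus strand), the ligand of the costimulatory receptor 4-1BB, had 8 and 6 counts with LPS + VD3, 15 and 5 with LPS and 1 and 1 in controls; its exons overlap a non-coding gene on the opposite strand, and their reads cannot be told apart if counting ignored strand. Its ratio of LPS to control was 12.3 (exact 95% interval 2.99 to 109, counting error only), and that of LPS + VD3 to LPS was 0.701 (0.328 to 1.46). Lta (chr17:35203165-35205351, minus strand), which encodes lymphotoxin alpha and lies 1.16 kb from Tnf, had 6 and 4 counts with LPS + VD3, 7 and 3 with LPS and 1 and 1 in controls, with a ratio of LPS to control of 6.15 (1.31 to 57.7). Its ratio of LPS + VD3 to LPS was 1 (0.374 to 2.68). Tnfsf14 (chr17:57189492-57194177, minus strand), the ligand LIGHT, which binds the lymphotoxin beta receptor and HVEM, ran the other way. It had 1 and 2 counts with LPS + VD3, 0 and 0 with LPS and 5 and 10 in controls. Taking control counts as exact, and a floor of 3 counts over the LPS libraries, it was 4.06-fold lower in LPS than in control cells. Its ratio of LPS + VD3 to control was 0.246 (0.0457 to 0.871). In a fit without the filter on low counts, edgeR gave adjusted p = 0.0169 for Tnfsf9, 0.0532 for Lta and 0.0214 for Tnfsf14 in LPS against control.

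The death domain receptor Tnfrsf1a (TNFR1; chr6:125349362-125362484, plus strand) had 141 and 153 CPM with LPS + VD3, 155 and 139 CPM with LPS and 113 and 114 CPM in controls. All LPS-treated libraries were slightly above both controls. Its difference of LPS against control was 0.37 ± 0.15 and missed the threshold (95% interval 0.04 to 0.70; edgeR adjusted p = 0.0827). It was 0.08 with no scaling beyond library size, and passed without LPS 2 (0.45, adjusted p = 0.0144) but not without LPS 1 (0.27, adjusted p = 0.136). The other TNF receptor, Tnfrsf1b (TNFR2; chr4:145213463-145246870, minus strand), had 2592 and 2467 CPM with LPS + VD3, 3197 and 2647 CPM with LPS and 516 and 525 CPM in controls. It rose with LPS by 2.49 ± 0.16, or 5.61-fold (95% interval 2.14 to 2.84; edgeR adjusted p = 1.78e-06). Fas (chr19:34290666-34327772, plus strand), the death receptor bound by Fas ligand, had 91.5 and 102 CPM with LPS + VD3, 92.8 and 92.3 CPM with LPS and 11.1 and 11.9 CPM in controls. It rose with LPS by 3.0 ± 0.18, or 8.03-fold (edgeR adjusted p = 1.07e-06).

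Added vitamin D3 moved none of the 7 tested members past the threshold. LPS + VD3 against LPS had 0 of 7 members called by edgeR and 0 of the 6 to which DESeq2 gave an adjusted p, where 3.83% of all tested genes were called by edgeR; 2 members, Tnf and Tnfsf13b, had an unadjusted p under 0.05 in edgeR. The median log2 difference of the members was -0.21, against 0.00 for all tested genes, and the libraries of the groups did not overlap for 4 of 7 members and for 48.1% of all tested genes. Tnf differed by -0.51 ± 0.17 on the log2 scale (95% interval -0.89 to -0.13; edgeR adjusted p = 0.131). The value was -0.30 without LPS 1 (adjusted p = 0.263) and -0.70 without LPS 2 (adjusted p = 0.0014), so the call rested on which LPS library was kept. Tnfsf13b differed in the other direction, by 1.36 ± 0.43 (95% interval 0.39 to 2.32, edgeR adjusted p = 0.119). It passed the filter on low counts only with the LPS + VD3 libraries (22 and 27 counts, against 13 and 6 with LPS), so this difference is a description. It differed by 2.01 without LPS 1 (adjusted p = 0.0695) and by 0.90 without LPS 2 (adjusted p = 0.156).

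**Figure D2:**
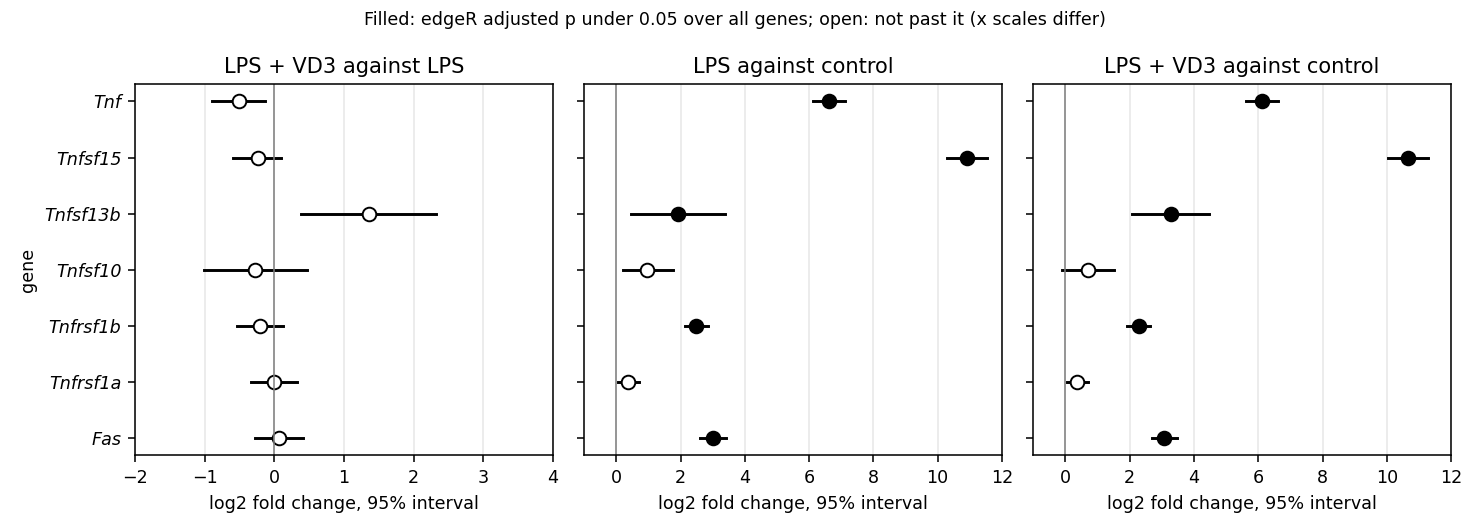
Log2 fold change of the 7 tested members with its 95% interval, in LPS + VD3 against LPS, LPS against control and LPS + VD3 against control; filled points passed the adjusted p threshold over all genes, open points did not, and the x scales differ. No point is filled in LPS + VD3 against LPS, and 5 are filled in each comparison with control.

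The other tested members lay nearer to 0. Tnfsf15 differed by -0.24 ± 0.15 between LPS + VD3 and LPS (95% interval -0.59 to 0.10; edgeR adjusted p = 0.368), and passed when counts were corrected for GC content (-0.46, adjusted p = 0.0363). It differed by -0.38 without LPS 1 (adjusted p = 0.117) and by -0.10 without LPS 2 (adjusted p = 0.577). Tnfrsf1b differed by -0.21 ± 0.15 (95% interval -0.54 to 0.12; edgeR adjusted p = 0.429), by -0.08 without LPS 1 and, past the threshold, by -0.33 without LPS 2 (adjusted p = 0.0477). Fas differed by 0.07 ± 0.15 (95% interval -0.28 to 0.41), and by 0.06 and 0.07 without LPS 1 and LPS 2; the sign turned with the GC correction (-0.16). Tnfrsf1a differed by 0.00 ± 0.15 (95% interval -0.33 to 0.33), and by 0.07 and -0.07 without LPS 1 and LPS 2. Tnfsf10 differed by -0.27 ± 0.33 (edgeR adjusted p = 0.654), by -0.62 without LPS 1 and by 0.18 without LPS 2.

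LPS + VD3 against control, which shares its control libraries with LPS against control, called 5 of the 7 tested members as higher (Tnf, Tnfsf15, Tnfsf13b, Tnfrsf1b and Fas) and 0 as lower. Of all tested genes, 35% were called (17.7% higher and 17.3% lower). Tnfsf15 and Tnfsf13b passed the filter on low counts only through LPS-treated libraries, so the count and median of the members are descriptions. With no scaling beyond library size, 25.9% of the called genes were higher, against 50.5%, and the same 5 members were called. The median of the members was 3.07, against 0.01 for all tested genes, and ranges did not overlap for 7 of 7 members and for 75.8% of all tested genes. The log2 difference was 6.12 ± 0.22 for Tnf (edgeR adjusted p = 3.87e-08), 10.65 ± 0.28 for Tnfsf15 (6.33e-09), 2.28 ± 0.16 for Tnfrsf1b (2.87e-06) and 3.07 ± 0.18 for Fas (8.72e-07). Tnfsf13b rose by 3.27 ± 0.54 (95% interval 2.06 to 4.48; edgeR adjusted p = 0.00105) and passed in each of 16 alternatives that gave a value. Tnfrsf1a differed by 0.37 ± 0.15 (edgeR adjusted p = 0.0757; 0.05 with no scaling beyond library size), passed with the GC correction (0.57, 0.00459), without LPS 1 (0.35, 0.0193) and without LPS 2 (0.38, 0.0117), and Tnfsf10 differed by 0.70 ± 0.36 (0.156). Among the untested members, Tnfsf9 had a ratio of LPS + VD3 to control of 8.63 (exact 95% interval 1.98 to 78.2) and Lta of 6.16 (1.31 to 57.8).

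To compare levels between genes, CPM was divided by the length of the longest annotated transcript. Tnf was the most abundant member after treatment, at 1109 ± 105 CPM per kb with LPS + VD3 and 1581 ± 318 CPM per kb with LPS, against 15.9 ± 1.11 CPM per kb in controls (SD, n = 2 each). Tnfrsf1b followed at 662 ± 23.1 with LPS + VD3 and 765 ± 102 with LPS and led in controls at 136 ± 1.71 CPM per kb. In treated cells Tnfsf15 came next; it had 331 ± 7.56 CPM per kb with LPS + VD3, 392 ± 51.8 with LPS and 0.2 ± 0.0794 in controls. In both treated groups the order Tnf, Tnfrsf1b, Tnfsf15, Tnfrsf1a held without overlap between the libraries of neighbours. Tnfrsf1a had 68.1 CPM per kb with LPS + VD3, 68.0 with LPS and 52.5 in controls. Fas had 65.4 CPM per kb with LPS + VD3, 62.5 with LPS and 7.76 in controls. The libraries of these neighbours overlapped with LPS + VD3 but not with LPS. Below them, neighbours in the order Tnfsf10, Tnfsf9, Tnfsf13b overlapped with LPS + VD3, as did neighbours in the order Tnfsf9, Tnfsf10, Lta, Tnfsf13b with LPS. In controls the order was Tnfrsf1b, Tnfrsf1a, Tnf and Fas, followed by Tnfsf10 and Tnfsf14, which overlapped.

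Ratios of these lengthwise levels within a library do not depend on scaling between libraries. Tnfrsf1b to Tnfrsf1a was 10.4 and 9.10 with LPS + VD3, 11.7 and 10.8 with LPS and 2.59 and 2.60 in controls. Tnf to Tnfrsf1b was 1.52 and 1.83 with LPS + VD3, 2.16 and 1.96 with LPS and 0.124 and 0.11 in controls. The sum of the 7 ligands to that of the 3 receptors was 1.69 and 1.94 with LPS + VD3, 2.23 and 2.18 with LPS and 0.0953 and 0.0866 in controls. In these 3 ratios, which all include Tnfrsf1b, the LPS + VD3 libraries lay below both LPS libraries and above both controls. Other ratios overlapped between LPS + VD3 and LPS. Tnf to Tnfsf15 was 3.18 and 3.52 with LPS + VD3, 5.09 and 3.17 with LPS and 65.4 and 106 in controls. Fas to Tnfrsf1a was 0.948 and 0.971 with LPS + VD3, 0.873 and 0.969 with LPS and 0.144 and 0.152 in controls. With 2 libraries a group, no exact permutation test of these ratios could reach 0.05, and none was run. Within the ligand sum, Tnfsf15 made up 23.8% and 22.1% with LPS + VD3 and 16.4% and 24.0% with LPS, which overlap, against 1.38% and 0.836% in controls, where Tnf made up 90.1% and 88.2%.

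**Figure D3:**
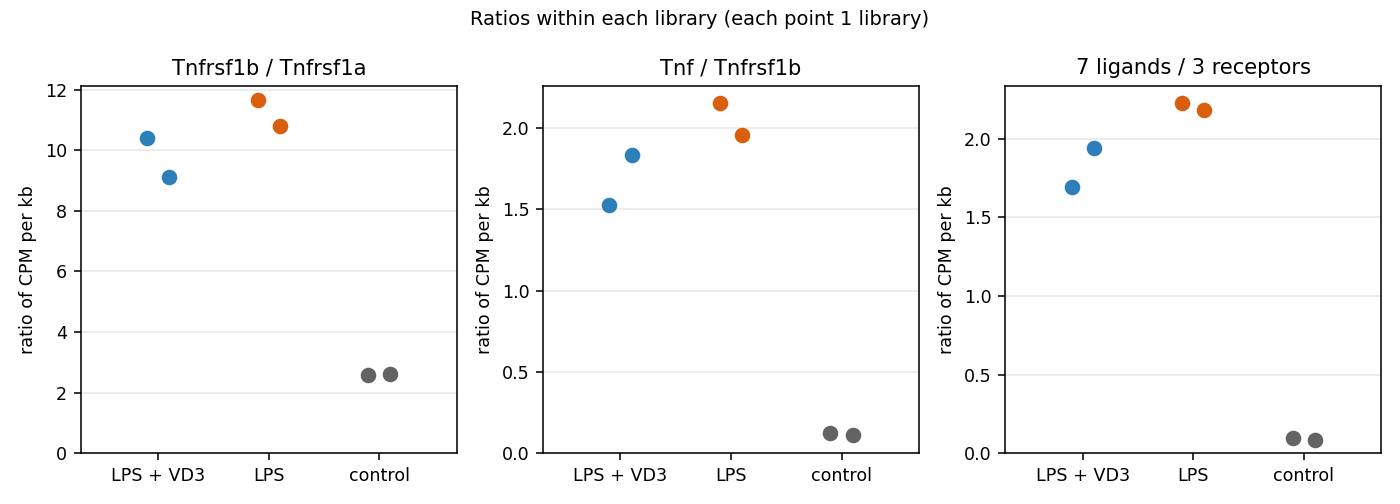
Ratios of CPM per kb within each library, for Tnfrsf1b to Tnfrsf1a, Tnf to Tnfrsf1b and the 7 ligands to the 3 receptors, in LPS + VD3, LPS and control cells; each point is 1 library. The LPS + VD3 points lie between the LPS and control points in all 3 panels.

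Among the other TNF family receptors, vitamin D3 changed 3 of 12 tested genes relative to LPS, 2 upward and 1 downward, against 2.25% and 1.59% of all tested genes. Relt, an orphan member of the TNF receptor family, had 56.7 and 54.3 CPM with LPS + VD3, 7.18 and 4.05 CPM with LPS and 25.7 and 26.6 CPM in controls. The LPS libraries were below both controls, and the LPS + VD3 libraries above them. Relt rose by 3.30 ± 0.25 with LPS + VD3 relative to LPS, or 9.85-fold (edgeR adjusted p = 0.000106), and by 2.95 to 3.76 with any library left out. It fell by 2.22 ± 0.26 with LPS relative to control (edgeR adjusted p = 0.000107) and was 1.09 ± 0.21 higher with LPS + VD3 than in control (0.00258).

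Tnfrsf22, a decoy receptor for TRAIL in mice, showed 13.6 and 16.9 CPM with LPS + VD3, 4.93 and 6.07 CPM with LPS and 15.9 and 16.2 CPM in controls. It rose by 1.47 ± 0.26 with LPS + VD3 relative to LPS (edgeR adjusted p = 0.0121), which was lost without LPS + VD3 1 (1.62, 0.0622) or LPS + VD3 2 (1.30, 0.174). It was 1.32 without LPS 1 and 1.63 without LPS 2, and its near copy Tnfrsf23 makes its counts uncertain. Cd40, the costimulatory receptor of antigen-presenting cells, had 13.2 and 16.7 CPM with LPS + VD3, 82.3 and 50.2 CPM with LPS and 0 CPM in both controls. All LPS + VD3 libraries were below the LPS libraries and above the controls. Cd40 fell by 2.14 ± 0.28 with LPS + VD3 relative to LPS (edgeR adjusted p = 0.00364), but did not pass without LPS + VD3 1 (-1.98, 0.104) or LPS + VD3 2 (-2.33, 0.0997). Its difference was -1.75 without LPS 1 and -2.45 without LPS 2. Against a floor of 3 counts over the controls, and with its own counts taken as exact, it was 60.4-fold higher with LPS + VD3 and 266-fold higher with LPS.

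**Figure D4:**
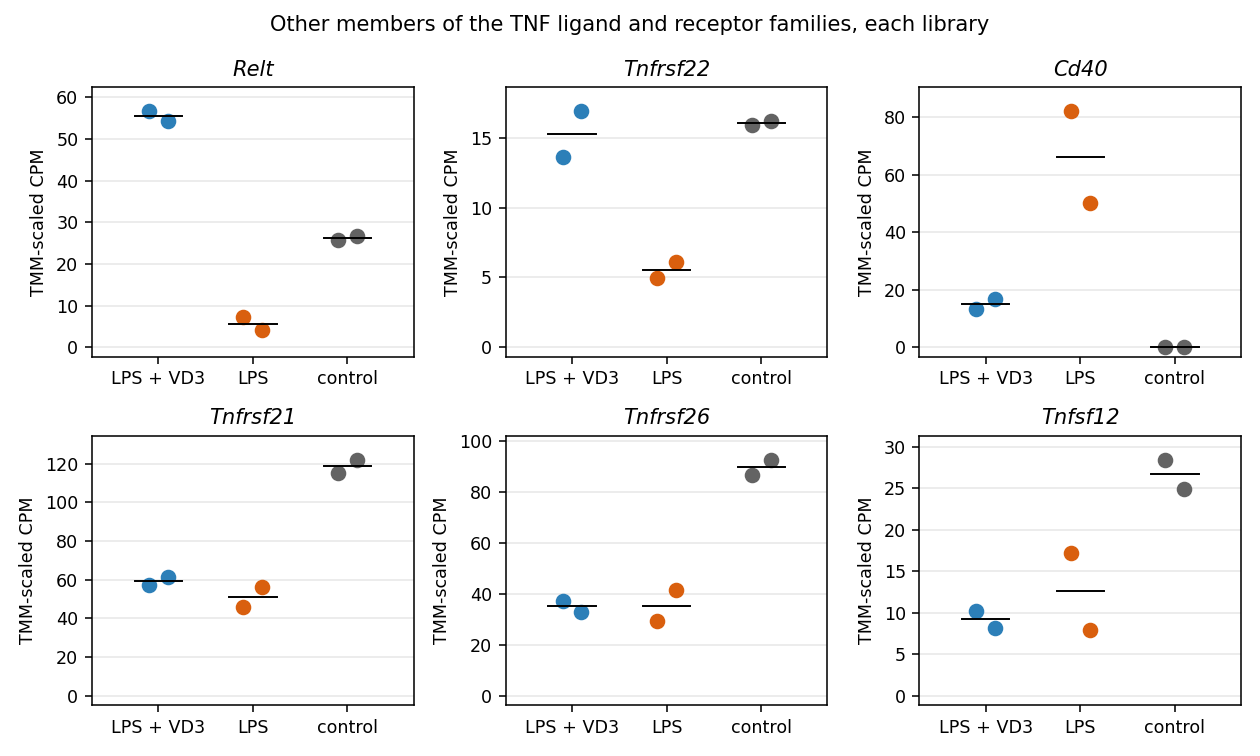
TMM-scaled CPM of Relt, Tnfrsf22, Cd40, Tnfrsf21, Tnfrsf26 and Tnfsf12 in each library of LPS + VD3, LPS and control cells; points are libraries and bars group means. Relt is highest with LPS + VD3 and lowest with LPS, Cd40 is highest with LPS, and Tnfrsf21, Tnfrsf26 and Tnfsf12 are below control in both treated groups.

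In LPS against control, 2 of these 12 receptors, Cd40 and Tnfrsf8, were higher and 6 lower, against 15.7% and 16.2% of all tested genes. Cd40 and Tnfrsf8 (2 and 3 counts in controls) passed the filter on low counts only through the LPS-treated libraries, so that their being higher is a description. The counts became 1 and 4 without control 1, and 0 and 7 in the deposited log2 table, which lacks Cd40. Tnfrsf21, a death domain receptor also called DR6, fell by 1.22 ± 0.17 (51.1 ± 7.55 CPM with LPS and 119 ± 4.83 CPM in controls; SD, n = 2 each; edgeR adjusted p = 0.000324). Tnfrsf26, another family receptor, averaged 35.2 ± 2.99 CPM with LPS + VD3, 35.4 ± 8.86 CPM with LPS and 89.7 ± 4.21 CPM in controls. It fell by 1.35 ± 0.20 with LPS + VD3 relative to control (edgeR adjusted p = 0.000484). Its exons overlap a gene on the opposite strand, and their reads cannot be told apart if counting ignored strand. The 13 receptors left untested include Tnfrsf9, the receptor 4-1BB, with 4 and 6 counts with LPS + VD3, 10 and 8 with LPS and 7 and 2 in controls. Of 11 other ligands, 2 had enough counts, Tnfsf12 and Tnfsf13. Exons of both overlap the protein-coding gene Tnfsfm13 on the same strand, so part of their counts may be shared. Tnfsf12, which encodes TWEAK, fell by 1.08 ± 0.31 with LPS relative to control (edgeR adjusted p = 0.0223) but was lost in 5 alternatives, among them those without control 1 (0.112), control 2 (0.0552) or LPS + VD3 1 (0.0547). Its difference was -1.77 without LPS 1 and -0.63 without LPS 2. Tnfsf13, which encodes the BAFF relative APRIL, fell by 1.30 ± 0.34 with LPS + VD3 relative to control (edgeR adjusted p = 0.0144; 0.0508 with DESeq2, 0.0622 without control 1). Its difference was -2.09 without LPS + VD3 1 and -0.82 without LPS + VD3 2 (adjusted p = 0.0806). Ltb, Fasl, Cd40lg, Cd70, Tnfsf11 and Eda had 0 counts in all 6 libraries, which allows up to 0.306 CPM in the LPS + VD3 or LPS group and 0.248 CPM in controls.

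Downstream of the receptors, LPS raised 8 of 18 adaptors and TRAFs and lowered none, against 15.7% and 16.2% of all tested genes, with a median difference of 0.57 against 0.01 for all tested genes. Traf1, an NF-kappa B target that binds Tnfrsf1b complexes, had 73.7 and 62.7 CPM with LPS + VD3, 114 and 76.9 CPM with LPS and 0.171 and 0.481 CPM in controls. It rose by 8.07 ± 0.40 with LPS relative to control (edgeR adjusted p = 2.6e-07, with 4 counts over the controls). Traf1 passed the filter on low counts only through the LPS-treated libraries, so its place among the genes raised is a description. Birc3 rose by 1.90 ± 0.18 (edgeR adjusted p = 3.2e-05) and Tank, a Traf-binding regulator, by 1.92 ± 0.22 (8.82e-05), while Ripk1 differed by -0.04 ± 0.15 (0.878). In LPS + VD3 against control the same list had 8 higher and 0 lower, against 17.7% and 17.3% of all tested genes. In LPS + VD3 against LPS 0 were called by edgeR or DESeq2, with 4 at an unadjusted p under 0.05 in edgeR. Without LPS 2, some of the list were called in LPS + VD3 against LPS, and calls over all tested genes rose as well.

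Of 10 genes of linear ubiquitin and A20 control, 5 rose with LPS and 0 fell (median 0.51), against 15.7% and 16.2% of all tested genes. The count raised was 3 without control 1, control 2 or LPS + VD3 2, and with no scaling beyond library size 3 were higher and 1 lower. In LPS + VD3 against LPS, 0 were higher and 1, Rnf31, lower. More of the list were called without LPS 2, as were more of all tested genes. Tnfaip3, the A20 enzyme that edits ubiquitin on receptor complexes and limits NF-kappa B, had 934 and 900 CPM with LPS + VD3, 704 and 736 CPM with LPS and 34.3 and 26.3 CPM in controls. It rose by 4.57 ± 0.18 with LPS relative to control (edgeR adjusted p = 6.95e-08), and its A20-binding partner Tnip1 by 3.14 ± 0.16 (4.34e-07). Between LPS + VD3 and LPS, Tnfaip3 differed by 0.35 ± 0.15 (edgeR adjusted p = 0.223), by 0.31 without LPS 1 (0.304) and by 0.39 without LPS 2 (0.0529). Rnf31, the catalytic subunit HOIP of the linear ubiquitin ligase, had 22.4 and 18.9 CPM with LPS + VD3, 45.4 and 33.6 CPM with LPS and 14.7 and 13.9 CPM in controls. It fell by 0.93 ± 0.21 with LPS + VD3 relative to LPS (edgeR adjusted p = 0.0413), a call that passed in only 1 of 6 fits with a library left out: it was -0.71 without LPS 1 (0.0572), -1.13 without LPS 2 (0.000753), -1.06 without LPS + VD3 1 (0.156), -0.82 without LPS + VD3 2 (0.372), and -0.93 without either control (0.0972 and 0.097). Its exons overlap Irf9, so part of its counts may be shared.

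In the death branch, 3 of 10 genes rose with LPS and 1 fell (median 0.19), against 15.7% and 16.2% of all tested genes; with no scaling beyond library size it was 3 and 3. In LPS + VD3 against LPS edgeR called 0, with 2 at an unadjusted p under 0.05, and DESeq2 called 1, Cflar. More of the list were called in LPS + VD3 against LPS without LPS 2, as were more of all tested genes. Against control, the count lowered by LPS was larger with either LPS library left out, as were the calls over all tested genes. Cflar, which encodes cFLIP, the brake on caspase 8, had 1388 and 1503 CPM with LPS + VD3, 778 and 1098 CPM with LPS and 128 and 132 CPM in controls. All groups were apart, with LPS + VD3 highest. It rose by 2.85 ± 0.19 with LPS relative to control (edgeR adjusted p = 2.42e-06). The difference of LPS + VD3 against LPS, 0.62 ± 0.18, missed the threshold (edgeR adjusted p = 0.0883) and passed with DESeq2 (0.0419), with the GC correction (0.46, 0.0356) and without LPS 2 (0.90, 0.000314). Without LPS 1 it was 0.39 (0.119), and it passed in 1 of 6 fits with a library left out.

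Among 13 genes of TNF shedding and mRNA control, 7 rose with LPS and 2 fell (median 0.78), against 15.7% and 16.2% of all tested genes. Rhbdf1, among those that rose, had 10 and 10 counts in controls and passed the filter on low counts only through LPS-treated libraries. The count raised is therefore a description. The count raised was 4 without control 2, and with no scaling beyond library size 5 were higher and 4 lower. Mapkapk2, the kinase MK2 that stabilises Tnf mRNA, rose by 2.04 ± 0.17 (edgeR adjusted p = 9.95e-06), Rhbdf2, which encodes iRhom2, needed to mature Adam17, by 1.75 ± 0.22 (0.000208), and Adam17 itself by 0.85 ± 0.17 (0.00342; 0.0525 without control 2). Exons of Adam17 overlap Iah1, so part of its counts is uncertain. Zfp36, the tristetraprolin that marks Tnf mRNA for decay, rose by 0.91 ± 0.27 (edgeR adjusted p = 0.0271), a call that held in only 8 of 18 alternatives. It missed the threshold in edgeR with no scaling beyond library size (0.62, adjusted p = 0.0999) and with only the compared libraries (0.92, adjusted p = 0.0519). With a library left out it ranged from 0.42, without LPS 1, to 1.26. In LPS + VD3 against LPS, edgeR called 0 of these 13 and DESeq2 called 1 as lower. In edgeR, 5 had an unadjusted p under 0.05. With the replicate number as a block, edgeR called 4 of them as lower. More of the list were called without LPS 2, as were more of all tested genes. Over all 65 tested genes of these lists, 25 were higher and 10 lower with LPS than in control, 2 were higher and 2 lower with LPS + VD3 than with LPS, and 25 were higher and 10 lower with LPS + VD3 than in control. As shares, 38.5% were higher and 15.4% lower with LPS than in control, against 15.7% and 16.2% of all tested genes. Between LPS + VD3 and LPS, 3.08% were higher and 3.08% lower, against 2.25% and 1.59%. Between LPS + VD3 and control, 38.5% were higher and 15.4% lower, against 17.7% and 17.3%. Among those higher with LPS than in control, Cd40, Tnfrsf8, Traf1 and Rhbdf1 passed the filter on low counts only through LPS-treated libraries. These shares are therefore a description. With no scaling beyond library size, 21 were higher and 17 lower with LPS than in control, and 18 higher and 16 lower with LPS + VD3 than in control. Without LPS 2, more of the listed genes were called in LPS + VD3 against LPS, as were more of all tested genes.

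**Figure D5:**
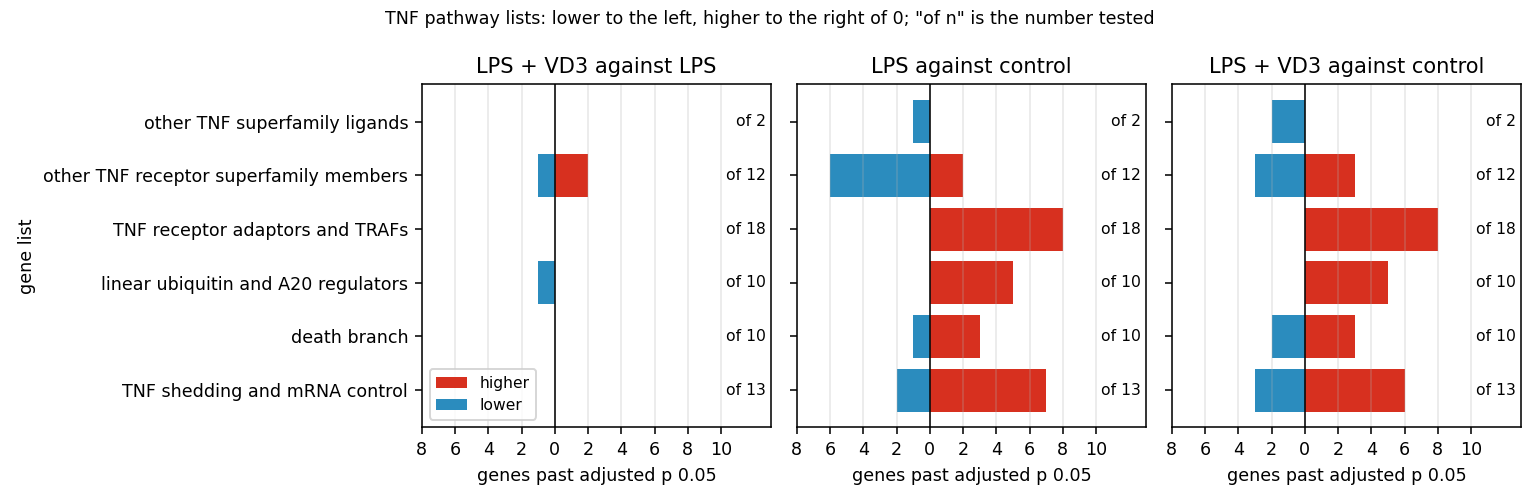
Number of genes past the adjusted p threshold in each TNF pathway list, lower to the left and higher to the right of 0, for LPS + VD3 against LPS, LPS against control and LPS + VD3 against control; the label beside each bar is the number tested. LPS against control calls 25 higher and 10 lower, and LPS + VD3 against LPS calls 2 and 2.

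The genes whose levels were most like those of Tnf over the 6 libraries were Rab32, Oasl2, Tnip1, B3gnt2 and Cxcl2, with Pearson r between 0.9994 and 0.9997 on log2 CPM. Of 6713 genes with a mean log2 CPM of at least 4, 163 had r over 0.99 to Tnf; the libraries fall into treated and control cells, and no p is given.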

How the data were processed

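The deposited gene table gives whole-number counts for every library, made by the authors. The submitters' processing notes list TopHat2, edgeR and mm10, and the labels' protocols give the KAPA mRNA HyperPrep kit for the libraries. Which program counted the reads, with which annotation and strand setting, is not given in the sources used here, so genes that overlap or have near copies are uncertain. A second deposited table holds log2 values of 10343 genes and was used only as an alternative.

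Tests used edgeR 4.0.16 (R 4.3.3) on the counts: filterByExpr (minimum count 10, total 15) kept 10724 of 23413 genes, libraries were scaled by TMM, and 1 quasi-likelihood fit with a mean per group took all 6 libraries (common dispersion 0.021, with 3 residual and 7.01 prior degrees of freedom). P-values were Benjamini-Hochberg adjusted over all tested genes, and 0.05 was the threshold. The SE is the absolute log2 difference over the root of its F statistic. Ratios of untested genes have exact 95% intervals, and floors are 3 counts over a group; both reflect counting error alone, because without molecular identifiers PCR copies cannot be removed with certainty. The fit was also run on counts simulated with neither a GC trend nor a shift shared by libraries of equal number. That run therefore does not show how the fit handles either.

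The 18 alternatives comprise DESeq2 1.42.0, limma-voom (limma 3.58.1), other scalings and filters, the log2 table, GC offsets (GC known for 94.1% of tested genes, GENCODE M21), the replicate number as a block, and leaving out each library. The members, gene lists and tests were chosen with earlier results of these data known. Named genes are the members, per list and comparison the up to 3 called genes with the smallest p, and 10 further genes of TNF signalling; the 5 genes most like Tnf are added. A few genes that this rule takes are not reported here. Positions are GENCODE M21 (mm10), promoters RefSeq GRCm38.p6.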

Additional observations from a re-analysis of the deposited data

How the results depend on the processing

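The counts of genes called over the whole table depended most on which library was kept. LPS against control called 3411 genes, and 1940 to 4829 with a library left out; LPS + VD3 against control called 3749, and 2126 to 5410. Of the genes called in LPS against control, 49.2% were higher, against 26.2% with no scaling beyond library size and 24.7% or 24.9% in the deposited log2 table (pseudocount 1 or 0.5). In LPS + VD3 against control the share was 50.5%, against 25.9% with no scaling, 39.6% with upper-quartile scaling and 24.2% or 24.4% in the log2 table. LPS + VD3 against LPS called 411 genes, 169 without the filter, 258 with only the compared libraries, 765 with GC offsets, and 55 to 3670 with a library left out (3670 without LPS 2; 94 and 55 without LPS + VD3 1 and 2).

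Of the members, LPS against control called 5, and 4 to 7 with a library left out; LPS + VD3 against control called 5, and 5 to 7. LPS + VD3 against LPS called 0, 1 with GC offsets (Tnfsf15), 2 with the replicate block and GC offsets (Tnf and Tnfsf15) and 0 to 2 with a library left out (Tnf and Tnfrsf1b without LPS 2). The extra members called against control without a library were Tnfsf9, which then passed the filter, Tnfsf10 and Tnfrsf1a. The cause was not tested.

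Libraries of equal number deviated together (r = 0.263 for LPS + VD3 and LPS, 0.376 for LPS and control, 0.224 for LPS + VD3 and control, over 6713 genes), but the labels do not say what the number marks. With the replicate block LPS + VD3 against LPS called 1152 genes, and 1373 with GC offsets as well. The block also called Tnfsf10 in LPS against control (adjusted p = 0.0441), Cflar in LPS + VD3 against LPS (0.64, adjusted p = 0.0167) and, among the TNF pathway lists in LPS + VD3 against LPS, 3 genes as higher and 7 as lower, against 2 and 2.

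None of the differences that changed sign passed under the setting that turned it. In LPS + VD3 against LPS, Tnfrsf1a ranged from -0.07 to 0.07 with a library left out, and was -0.01 with DESeq2, -0.05 with upper-quartile scaling, -0.03 with no scaling and in both forms of the log2 table, 0.00 without the filter, -0.01 with the compared libraries and -0.07 without LPS 2 or LPS + VD3 2. Birc3 ranged from -0.08 to 0.13 and was -0.02 with upper-quartile scaling, 0.00 with no scaling, -0.10 with GC offsets, with or without the block, -0.01 in the log2 table. Fas ranged from -0.02 to 0.14 and was -0.16 with GC offsets, with or without the block. With a library left out, Zfp36 ranged from -0.60 to 0.20, Tnfsf10 from -0.62 to 0.18 and Adam17 from -0.24 to 0.21. Ripk1 in LPS against control was 0.04 with GC offsets, with or without the block, and -0.13 to 0.03 with a library left out; in LPS + VD3 against control it was -0.16 with no scaling and -0.15 or -0.16 in the log2 table.

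Of 1258 values of 71 single-gene results under 18 settings, 1147 kept direction and side of the threshold, 52 lost the call, 28 gained it and 31 changed sign.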
